A study of Mus musculus with 12 samples.

Results

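A set of 10 genes of the neutrophil granule program was followed on arrays of sorted splenic B cells from mice wild type for Zfx or labelled cko. The 10 genes were S100a8, S100a9, Lcn2, Ngp, Camp, Ltf, Lyz1, Hp, Chil3 and Pglyrp1. They were taken by gene symbol, which gave 12 of the 34945 probe sets with a single gene symbol, 3 of them for Lyz1. All 10 genes had a probe set bright enough for testing and entered the fit of 12190 genes. A further probe set annotated jointly to Chil3 and a second gene was not used.

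Neutrophils store antimicrobial and matrix-degrading proteins in granules that form one after another as the cell matures in the bone marrow. Azurophil granules with myeloperoxidase and serine proteases come first, followed by specific granules with lactoferrin, lipocalin and cathelicidins, and then gelatinase granules. S100a8 and S100a9 pair to form calprotectin, which lies in the cytosol and is among the most abundant neutrophil proteins. Follicular B cells are the main recirculating B cells of the spleen, and these proteins are not part of their textbook program.

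The cells were splenic follicular B cells of male 129SvEv mice aged 8 weeks, sorted as B220+, AA4.1-, CD23hi and CD21int. One arm was wild type (ZFXwt) and the other ZFXcko, a conditional deletion of Zfx, which encodes a zinc finger transcription factor. The cells of both arms were cultured with 10 µg/mL anti-IgM, a treatment that stimulates through the B-cell receptor, and harvested at 0, 2 or 12 h. That gave 6 groups of 2 arrays each, 12 arrays in all. No group was kept in culture without anti-IgM, so anti-IgM and time in culture cannot be told apart. The sources used here do not give the Cre driver, the number of mice behind each array or whether animals were pooled. The labels describe the hybridisation as duplicate, so the p-values reflect the spread of array pairs alone, and that spread may be technical.

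The promoters of 4 members are shown because they form pairs of related genes whose signals can be compared on the arrays. S100a8 and S100a9 are calprotectin partners on chromosome 3, and Ngp and Camp both encode proteins of the cathelicidin family on chromosome 9. Each sequence is the 250 bases before the gene start in RefSeq on GRCm38.p6, written 5′ to 3′ on the gene's own strand. The windows are chr3:90668821-90669070 on the plus strand, chr3:90695722-90695971 on the minus strand, chr9:110419558-110419807 on the plus strand and chr9:109849457-109849706 on the minus strand. Capitals mark every match, on either strand, to a core of C/EBP sites (TTNNGNAA) or of ETS sites (GAGGAA), the families to which the granule gene regulators Cebpe and Spi1 belong; a match to one core can overlap a match to the other.
S100a8 promoter: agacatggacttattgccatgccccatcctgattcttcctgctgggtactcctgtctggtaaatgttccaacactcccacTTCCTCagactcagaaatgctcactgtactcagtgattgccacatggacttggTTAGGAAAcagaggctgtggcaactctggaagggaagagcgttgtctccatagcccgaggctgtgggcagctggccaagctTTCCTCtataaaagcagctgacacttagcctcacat
S100a9 promoter: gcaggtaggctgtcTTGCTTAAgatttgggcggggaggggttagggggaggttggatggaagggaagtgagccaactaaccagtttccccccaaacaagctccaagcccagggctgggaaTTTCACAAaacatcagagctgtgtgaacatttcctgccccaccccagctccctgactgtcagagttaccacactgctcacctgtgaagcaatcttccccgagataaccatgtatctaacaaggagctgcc
Ngp promoter: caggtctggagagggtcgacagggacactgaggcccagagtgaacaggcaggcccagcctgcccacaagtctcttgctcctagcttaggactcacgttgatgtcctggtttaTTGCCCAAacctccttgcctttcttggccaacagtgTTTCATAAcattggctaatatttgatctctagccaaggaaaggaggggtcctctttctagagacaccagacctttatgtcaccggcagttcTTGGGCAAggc
Camp promoter: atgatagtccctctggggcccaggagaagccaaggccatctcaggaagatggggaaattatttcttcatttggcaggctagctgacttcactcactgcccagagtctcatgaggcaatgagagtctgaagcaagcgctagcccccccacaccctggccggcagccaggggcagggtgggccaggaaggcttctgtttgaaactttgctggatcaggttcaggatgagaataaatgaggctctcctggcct
The Ngp window held 3 C/EBP core matches, at -138, -102 and -11 from the start, and the Camp window held 0 matches to either core. S100a9 held 2 C/EBP core matches, at -236 and -130, and S100a8 held 1, at -117, with ETS core matches at -170 and -36. Of the 9 members with a promoter entry, 7 held the C/EBP core and 4 the ETS core. Among 32851 mouse promoters of the same length, 36.8% held the C/EBP core and 23.3% the ETS core. The matches describe letters in these windows, not bound sites.

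Signals are linear array intensities, scaled by the authors so that the trimmed mean of every array was 250, and levels are compared between arrays, each probe set with itself. B-cell transcripts were bright on all 12 arrays, with Cd79b, a chain of the B-cell receptor complex, between 6620 and 22940 and Cd22 between 1458 and 22550. Zfx itself, on its brightest probe set, read 983 and 1041 on the wild-type arrays at 0 h and 2189 and 2618 on the arrays labelled cko. The sources used here do not place its probes relative to the deleted part, so this signal does not check the genotype, and directions below are those of the labels. Control probe sets divided the groups. The actin 5′ signal was 1.80 to 3.33% of the 3′ signal in wild type at 0 h, wild type at 12 h and cko at 0 h, but 8.41 to 19.1% in both 2 h groups and in cko at 12 h. The 18S ribosomal RNA signal ran the other way, 6636 to 10892 against 1022 to 1299. Comparisons within one side of that division are cko against wild type at 0 h and at 2 h, 12 h against 0 h in wild type and 12 h against 2 h in cko. The actin share separated the groups in each of these as well. At 0 h it was 3.27 and 3.33% in wild type against 1.99 and 1.80% in cko. In cko it was 10.6 and 10.8% at 2 h against 19.1 and 19.0% at 12 h. In the other comparisons of 2 groups tested here, the division and the groups cannot be told apart.

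Calprotectin transcripts were bright in resting wild-type cells and dimmer after culture with anti-IgM and on the arrays labelled cko. S100a8, the smaller calprotectin chain (probe set 1419394_s_at), gave wild-type signals of 11849.9 and 12117 at 0 h, 6906 and 7158 at 2 h, and 5146 and 4137 at 12 h. The cko arrays gave 4664 and 4524 at 0 h, 954 and 1080.2 at 2 h, and 953 and 926 at 12 h. At each time both cko arrays lay under both wild-type arrays, and the wild-type arrays at 12 h overlapped the cko arrays at 0 h. S100a9, its partner chain (1448756_at), gave 3817 and 4251 at 0 h, 2835 and 2738 at 2 h, and 939 and 1009 at 12 h in wild type. In cko it gave 1045 and 902, then 372 and 421, then 399 and 385. Here too the genotypes did not overlap at any time, and the cko values at 2 h and 12 h overlapped each other.

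Ngp (neutrophilic granule protein) and Camp (the cathelicidin precursor), both of the cathelicidin family and made by developing neutrophils, ran apart across the groups. Ngp (1418722_at) read 2646 and 2773 at 0 h, 2907 and 2685 at 2 h, and 1243 and 1240.0 at 12 h in wild type. In cko it read 1348 and 1496, then 443 and 526, then 960.3 and 866. The wild-type arrays at 0 h and 2 h overlapped, whereas the cko arrays at 2 h were the lowest of all 12. Camp (1419691_at) read 666 and 763 at 0 h, 2513 and 2530 at 2 h, and 293 and 247 at 12 h in wild type. In cko it read 282 and 272, then 473 and 449, then 929 and 885. Both Camp arrays at 2 h exceeded every other wild-type array, and both at 12 h exceeded every other cko array, a pattern no other member had.

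Lcn2, Ltf and Hp encode proteins that withhold iron: lipocalin-2 binds bacterial siderophores, lactoferrin binds iron itself and haptoglobin binds free haemoglobin. Lcn2 (1427747_a_at) gave 2739 and 2488, 1034 and 1138, and 519 and 563 in wild type at 0, 2 and 12 h. The cko arrays gave 460.3 and 493, 162 and 143, and 189 and 164 for it at these times. No wild-type array fell within the cko range, since the lowest wild-type signal, 519, exceeded the highest cko signal, 493. Ltf (1450009_at) gave 493 and 425, 143 and 109, and 164 and 188 in wild type, against 165 and 197, 25.05 and 75.0, and 84.1 and 96.9 in cko. Its cko arrays at 2 h differed between themselves more, in relative terms, than those of any other member. Hp (1448881_at) gave 724 and 725, 163 and 177, and 103 and 146 in wild type, against 194 and 186, 43.0 and 50.3, and 68.2 and 57.1 in cko. Its wild-type arrays at 0 h were the brightest, and the genotypes did not overlap at any time.

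Lyz1, Pglyrp1 and Chil3 encode proteins that act on polysaccharides. Lyz1 is a lysozyme, Pglyrp1 recognises bacterial peptidoglycan, and Chil3 is a chitinase-like lectin made by neutrophils and by some macrophages. The brightest Lyz1 probe set (1436996_x_at) gave 6021 and 6401, 2916 and 2876, and 4496 and 4623 in wild type, against 5323 and 5546, 804 and 824, and 1428 and 1304 in cko. Genotypes were close at 0 h and far apart at 2 h and 12 h. Pglyrp1 (1449184_at) gave 520.5 and 592, 225 and 146, and 124 and 107 in wild type, against 279 and 237, 29.0 and 34.0, and 78.0 and 49.4 in cko. Chil3 (1419764_at) gave 2407 and 2342, 1309 and 1345, and 341 and 291 in wild type, against 580.3 and 615, 201 and 194, and 287 and 292 in cko. At 12 h the Chil3 signals of the genotypes overlapped.

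**Figure D1:**
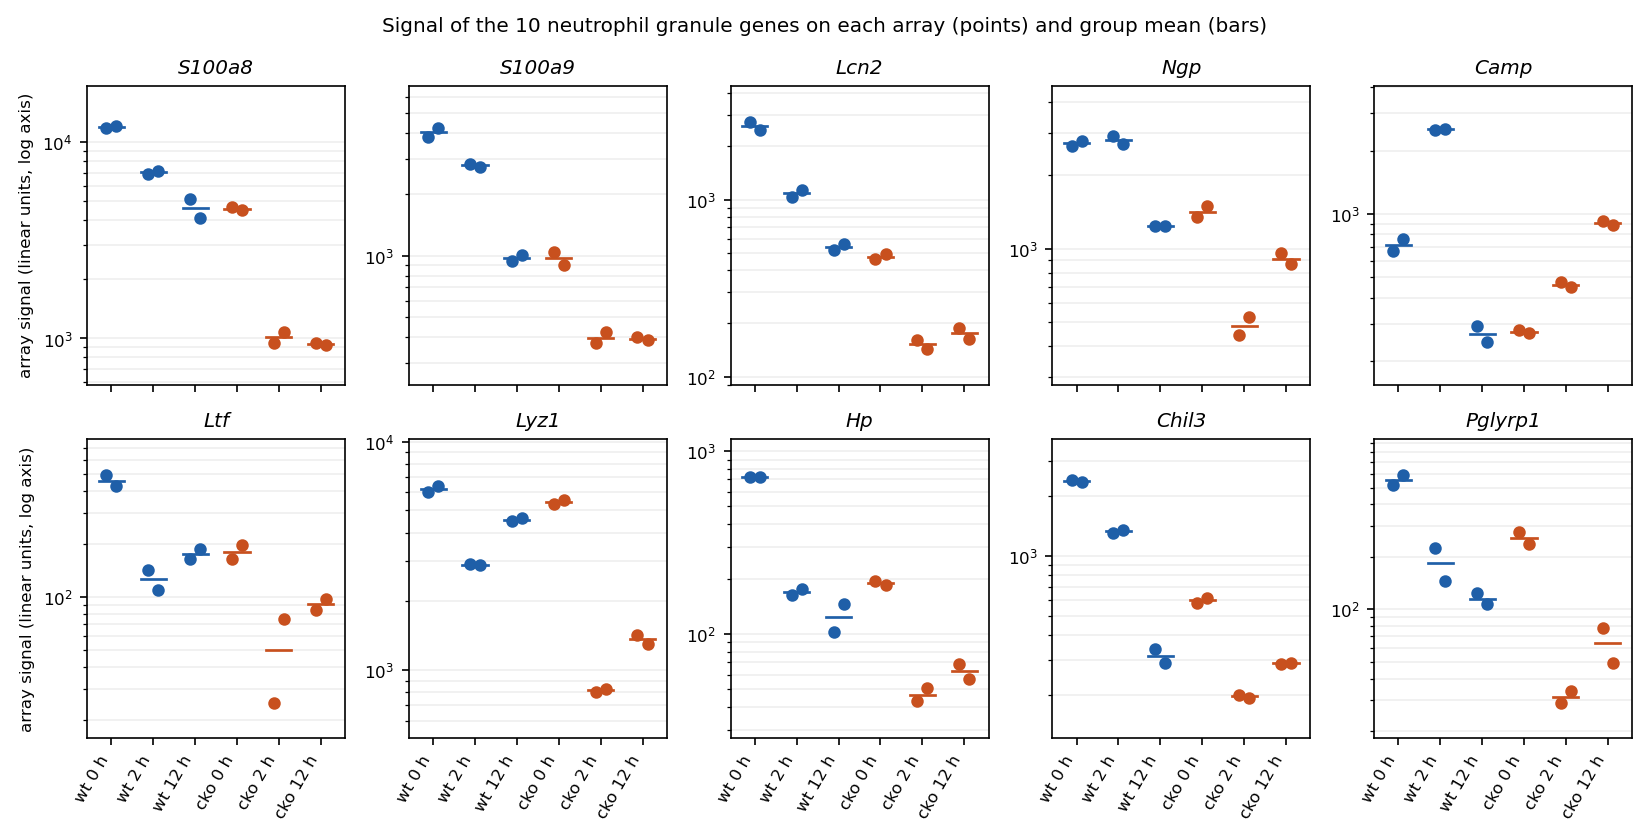
Signal of each member on every array in the 6 groups of genotype and time, on a log axis. Points are the 2 arrays of a group and short bars are the group means. Camp has its wild-type peak at 2 h and its cko peak at 12 h, and Lyz1 shows near-equal genotypes at 0 h.

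At 0 h, before any time with anti-IgM, all 10 members were lower on the arrays labelled cko than in wild type. Over all 12190 genes, 16% were called lower and 16.3% higher, and the median log2 difference was 0.02 for all genes and -1.35 for the members. Of the called genes 50.4% were higher, and 33.7% after scaling every array to one median. Differences are in log2(signal + 16), cko minus wild type, with limma's standard error and its p adjusted by Benjamini-Hochberg over all genes, called under 0.05. The wild-type mean signal was 1.14 (Lyz1) to 5.48 (Lcn2) times the cko mean, with a median of 2.59. Lcn2 differed by -2.42 ± 0.11 (adjusted p = 3.33e-08) and S100a9 by -2.04 ± 0.09 (adjusted p = 3.33e-08). Chil3 differed by -1.96 ± 0.10 and Hp by -1.85 ± 0.18. S100a8 differed by -1.38 ± 0.09, Camp by -1.32 ± 0.10 and Ltf by -1.27 ± 0.29. Pglyrp1, at -1.06 ± 0.22, and Ngp, at -0.92 ± 0.09, were also lower. Lyz1 had the smallest difference, -0.19 ± 0.06 (limma adjusted p = 0.0304). That call did not hold without cko replicate 1 (-0.16), without cko replicate 2 (-0.22) or without wild-type replicate 2 (-0.15), nor with the mean of the Lyz1 probe sets (-0.22) or with eBayes without a trend. In bulk RNA, fewer cells of a type and less RNA per cell cannot be told apart.

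After 2 h with anti-IgM all 10 members were again lower in cko, as were 9 of 12 B-cell genes. Genes called lower made up 15.7% of all tested and those called higher 12.8%, and the members' median was -2.45 against -0.02 over all genes. Wild-type means were 2.51 (Ltf) to 7.12 (Lcn2) times the cko means, with a median of 5.82. The calprotectin genes S100a8 and S100a9 both differed by -2.77, with standard errors of 0.09 and a limma adjusted p of 5.97e-10 each. Lcn2 stood at -2.71 ± 0.11, Chil3 at -2.65 ± 0.10, Ngp at -2.49 ± 0.09 and Camp at -2.41 ± 0.10. Pglyrp1 (-2.06 ± 0.22), Lyz1 (-1.81 ± 0.06), Hp (-1.57 ± 0.18) and Ltf (-1.20 ± 0.29) had the smaller differences. The Ltf call was lost without cko replicate 1, which read 25.05 and left -0.63, and without wild-type replicate 1, which left -1.03.

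The change in the gap from 0 h to 2 h was itself tested as an interaction, with both 0 h groups on one side of the control-probe division and both 2 h groups on the other. The interaction was negative and called for 7 members. Apart from Ngp and Camp, their cko signal fell further than the wild-type signal. Ngp fell in cko and was not called in wild type (0.04), and Camp rose less in cko. Over all genes, 11.8% were called negative and 8.59% positive. The values were -1.62 for Lyz1, -1.57 for Ngp, -1.39 for S100a8, -1.10 for Camp, -0.99 for Pglyrp1, -0.73 for S100a9 and -0.69 for Chil3. Lcn2 (-0.29 ± 0.15, limma adjusted p = 0.209), Ltf (0.07 ± 0.41) and Hp (0.27 ± 0.25) were not called. The Pglyrp1 call (limma adjusted p = 0.0409) was lost when any one of 7 arrays was left out, with values from -1.11 to -0.71. It was also lost under quantile normalization (-0.90), median scaling (-0.92), no filter and eBayes without a trend.

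At 12 h, where the genotypes lay on opposite sides of the control-probe division, 8 members were lower in cko, Camp was higher and Chil3 was not called. Of all genes, 29.9% were called lower and 21.4% higher, with medians of -0.83 for the members and -0.17 for all genes. Median scaling raised the higher share of the called genes from 41.7 to 64.2%. S100a8 differed by -2.28 ± 0.09, Lyz1 by -1.73 ± 0.06, Lcn2 by -1.53 ± 0.11 and S100a9 by -1.28 ± 0.09. Camp differed the other way by 1.69 ± 0.10 (limma adjusted p = 1e-08), and its cko mean was 336% of the wild-type mean. Chil3 differed by -0.12 ± 0.10 (limma adjusted p = 0.33). Ltf (-0.85 ± 0.29), Hp (-0.82 ± 0.18), Pglyrp1 (-0.74 ± 0.22) and Ngp (-0.44 ± 0.09) had the smaller called differences. The Ltf call was lost without any one of the 4 arrays at 12 h, and the Pglyrp1 call without cko replicate 2 (-0.48) or wild-type replicate 1 (-0.65). That scaling left 5 members lower and 1 higher, and it ended the calls of Ngp (-0.12), Ltf (-0.57) and Pglyrp1 (-0.47).

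**Figure D2:**
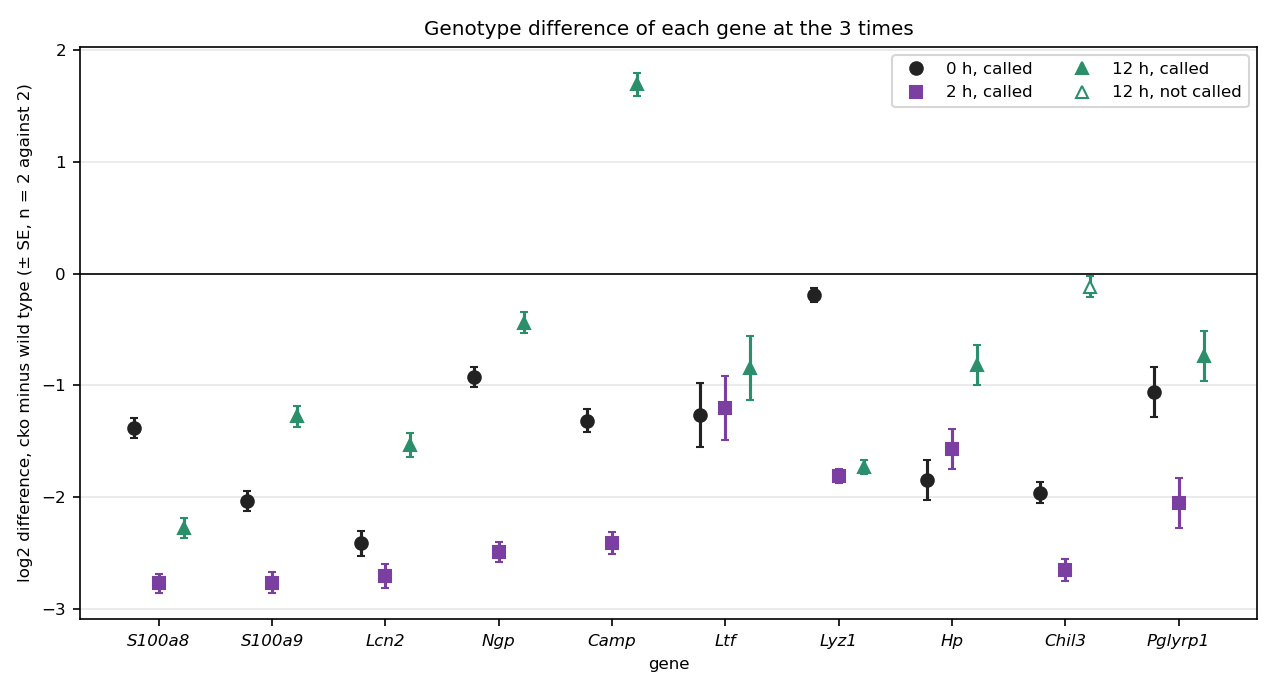
Difference of cko minus wild type in log2(signal + 16) for each member at 0, 2 and 12 h, with bars for limma's standard error and a line at no difference. All 10 members are below 0 at 0 h and 2 h, and at 12 h Camp is at 1.69 and Chil3 near 0.

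Averaged over the 3 times, all 10 members were lower in cko, against 26.6% of all genes called lower and 21.3% called higher. The mean differences ran from -0.68 for Camp to -2.22 for Lcn2, with S100a8 at -2.14 and S100a9 at -2.03. Since the 12 h arrays enter this mean, it crosses the division in part. With duplicate arrays averaged first, so that each group counted once, the fit was additive in genotype and time. Any interaction of genotype with time counts as spread in such a fit. It called 3 members lower (Lcn2, S100a8 and S100a9) and called 0.747% of all genes.

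In wild type, all 10 members were lower at 12 h than at 0 h, a comparison of arrays on one side of the control-probe division. Called lower were 23.1% of all genes and called higher 24.8%, and the medians were -1.70 for the members and 0.03 for all genes. The signal left at 12 h was 13.3 to 73.4% of the 0 h mean, with a median of 31%. Chil3 had the largest fall (-2.85 ± 0.10, limma adjusted p = 3.4e-11) and kept 13.3% of its signal. Hp (-2.42), Lcn2 (-2.24), Pglyrp1 (-2.13) and S100a9 (-2.03) followed. S100a8 (-1.37), Camp (-1.35), Ltf (-1.31) and Ngp (-1.12) fell less, and Lyz1 least (-0.44 ± 0.06), keeping 73.4%; a second Lyz1 probe set was not called.

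At 2 h in wild type, 8 members were lower than at 0 h, Camp was higher and Ngp was not called. This comparison crosses the division, and 36.2% of all genes were called lower and 23.5% higher. The higher genes were 39.4% of those called, and 52.6% under median scaling. The medians were -0.96 for the members and -0.24 for all genes. The falls were largest for Hp (-1.99), Ltf (-1.75), Pglyrp1 (-1.53) and Lcn2 (-1.25). Lyz1 (-1.10), Chil3 (-0.83), S100a8 (-0.77) and S100a9 (-0.53) fell as well. Camp rose by 1.80 ± 0.10 (limma adjusted p = 1.98e-09), to 353% of its 0 h mean. Ngp differed by 0.04 ± 0.09 (limma adjusted p = 0.702). Under median scaling, which moved the median of all genes from -0.24 to 0.00, the S100a9 call was lost (-0.24) and Ngp was called higher (0.33).

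From 2 h to 12 h in wild type, also across the division, 7 members fell and Lyz1 rose. Of all genes 22% were called lower and 35.3% higher, a higher share of 61.6% among the called that became 46.3% under median scaling. The falls were -3.15 ± 0.10 for Camp, -2.02 for Chil3, -1.50 for S100a9, -1.16 for Ngp, -0.98 for Lcn2, -0.61 for S100a8 and -0.59 for Pglyrp1. Lyz1 rose by 0.65 ± 0.06, a value that was 0.36 under median scaling and 0.40 when its probe sets were averaged, and Ltf (0.44) and Hp (-0.42, limma adjusted p = 0.0579) were not called. The Pglyrp1 call was lost without wild-type 2 h replicate 1 (-0.30) and without either 12 h array (-0.68 and -0.50), and Hp was called without 12 h replicate 2 (-0.65).

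In cko, 9 members were lower at 2 h than at 0 h and Camp was higher. Over all genes 39.2% were called lower and 23.8% higher, with medians of -0.32 for all genes and -1.62 for the members. Median scaling turned the higher share of the called genes from 37.8 to 55.2%. The 9 kept 12.2 to 40.8% of their 0 h means, Pglyrp1 the least. Lyz1 (-2.72), Pglyrp1 (-2.53), S100a8 (-2.16), Hp (-1.72) and Ltf (-1.69) had the larger falls. Lcn2 (-1.55), Ngp (-1.52), Chil3 (-1.52) and S100a9 (-1.26) fell too. Camp rose by 0.70 ± 0.10, to 167% of its 0 h mean. Without cko 2 h replicate 1 the Ltf value was -1.11.

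The cko arrays at 12 h, compared with 0 h, gave the same split, 9 lower and Camp higher, with 33.1% of all genes called lower and 25.9% higher. Higher genes were 43.9% of the called, and 65.7% under median scaling. The 9 kept 20.4 to 64.2% of their 0 h means. S100a8 stood at -2.27, Lyz1 at -1.98, Pglyrp1 at -1.80, Hp at -1.39, Lcn2 at -1.36, S100a9 at -1.27 and Chil3 at -1.01. Ltf (-0.89) and Ngp (-0.63) fell least, and both calls were lost under median scaling (-0.51 and -0.22). The Ltf call was also lost without cko 0 h replicate 2 (-0.77) or 12 h replicate 1 (-0.80). Camp rose by 1.66 ± 0.10, to 328% of its 0 h mean.

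Between 2 h and 12 h in cko, where all 4 arrays lie on one side of the division, 6 members rose and 0 fell. Called higher were 30.2% of all genes and called lower 18.7%, and the medians were 0.62 for the members and 0.10 for all genes. Camp rose by 0.95 ± 0.10, Ngp by 0.89 ± 0.09, Ltf by 0.80 ± 0.29, Lyz1 by 0.73 ± 0.06, Pglyrp1 by 0.73 ± 0.22 and Chil3 by 0.52 ± 0.10. Lcn2 (0.19), Hp (0.33), S100a9 (-0.02) and S100a8 (-0.11) were not called. The Ltf call was lost without cko 2 h replicate 1 (0.22) and without either 12 h array (0.89 and 0.71), and the value was 1.37 without 2 h replicate 2. The Pglyrp1 call was lost without 12 h replicate 1 (0.46) or 2 h replicate 1 (0.65).

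**Figure D3:**
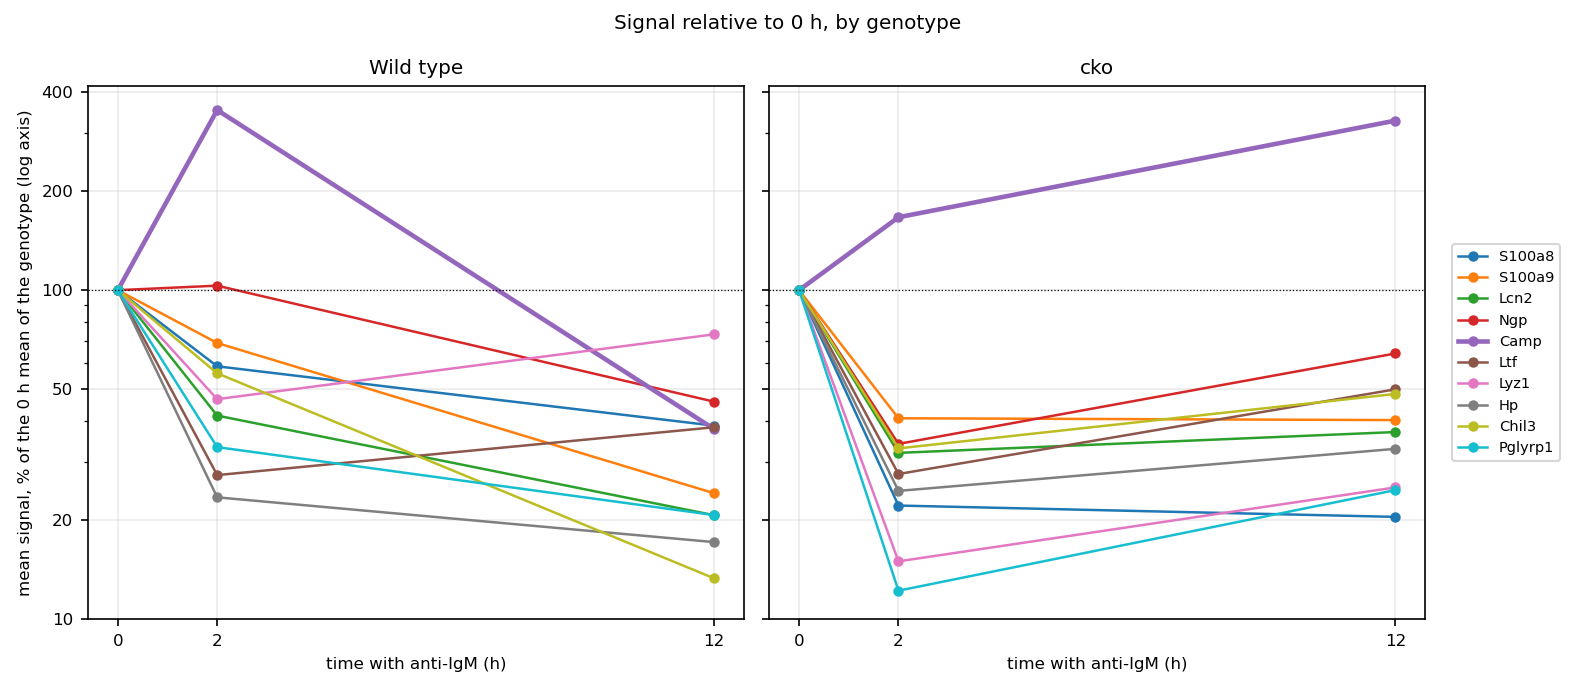
Mean signal of each member at 0, 2 and 12 h as a percentage of its 0 h mean, wild type on the left and cko on the right, on a log axis with a dotted line at 100%. Camp reaches 353% at 2 h in wild type and 328% at 12 h in cko, and the other members end at 13.3 to 73.4% in wild type and 20.4 to 64.2% in cko.

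The 12 h response differed between genotypes in both directions. The interaction was positive and called for 6 members and negative for 2, while 18.8% of all genes were called positive and 24.4% negative. The positive values were 3.01 for Camp, 1.85 for Chil3, 1.02 for Hp, 0.88 for Lcn2, 0.76 for S100a9 and 0.49 for Ngp. Lyz1 (-1.54) and S100a8 (-0.90) were negative, and Ltf (0.42 ± 0.41) and Pglyrp1 (0.32 ± 0.32) were not called. Median scaling gave -0.47 for S100a8, 0.91 for Ngp and 1.17 for S100a9, all still called. Only the cko arrays change sides of the division in this interaction, so that division and genotype response cannot be told apart here. With the genotypes averaged, 9 members were lower at 2 h and Camp higher, against 43.5% of all genes called lower and 25.9% higher. Averaging the duplicate arrays first, in an additive fit without interaction, left 6 called lower and Camp not called. That fit called 33.9% of all genes. At 12 h 9 were lower on average, against 31.5% called lower and 27.8% higher, and Camp (0.15 ± 0.07, limma adjusted p = 0.0873) was not called. It was called without wild-type 0 h replicate 2 (0.20) or 12 h replicate 2 (0.21). In the additive fit of averaged duplicates, the 12 h calls of Lyz1 (limma adjusted p = 0.0648) and Ngp (limma adjusted p = 0.207) were lost, and 13.9% of all genes were called.

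Camp and Ngp signals moved relative to each other along the control-probe division. Within an array, the log2 difference Camp minus Ngp was -2.39 to -1.84 on the 6 arrays with a low actin 5′ share and -0.22 to 0.09 on the 6 with a high share. These ranges did not overlap, and each held arrays of both genotypes. S100a8 minus S100a9 was 1.51 to 2.44 on the first 6 arrays and 1.22 to 1.38 on the others. Such a difference within an array shows unequal change of 2 probe sets and not which one changed. Each member was therefore also set against the mean of the other 9, centred over the 12 arrays. Camp was then at -1.64 to -1.01 on the arrays with a low actin share and at 0.999 to 1.67 on the others. The ranges of Ngp, -0.673 to 0.0267 and -0.0329 to 0.453, overlapped. A further fit added the division as a term to an additive model of genotype and time, which has no interaction of genotype with time. In that fit the 2 h difference is separated from the division only through the cko arrays at 12 h, so the 2 changes of the model cannot be told apart. The time differences of Camp were then -2.31 at 2 h (limma adjusted p = 0.00014) and -1.63 at 12 h (limma adjusted p = 6.19e-05), against means over the genotypes of 1.25 and 0.15. The other 9 members stayed below 0 at both times, but some values moved far: at 2 h Chil3 went from -1.18 to -3.37, Ngp from -0.74 to -2.01, S100a9 from -0.89 to -2.02 and Lcn2 from -1.40 to -2.43. At 12 h Chil3 went from -1.93 to -3.03 and Ngp from -0.87 to -1.51. Lyz1 at 2 h, from -1.91 to -1.18, was no longer called (limma adjusted p = 0.0603).

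**Figure D4:**
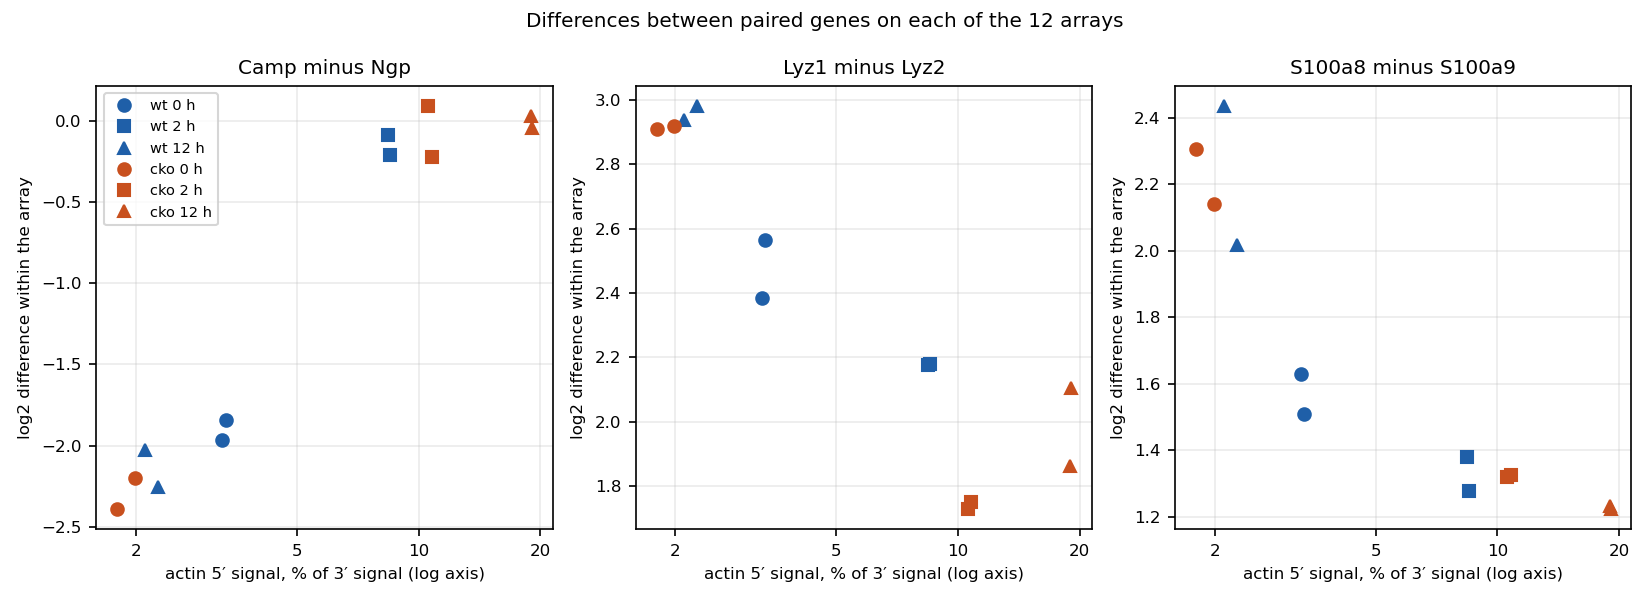
Log2 difference of 2 probe sets within each of the 12 arrays, plotted against the actin 5′ signal as a percentage of the 3′ signal, for Camp minus Ngp, Lyz1 minus Lyz2 and S100a8 minus S100a9. Camp minus Ngp lies at -2.39 to -1.84 on the 6 arrays with a low actin share and at -0.22 to 0.09 on the 6 with a high share.

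The 3 Lyz1 probe sets did not tell one story. Lyz1 and Lyz2, the lysozyme of myeloid cells at large, are near-identical neighbours, and the suffix of the 2 bright Lyz1 probe sets marks probes that can match other transcripts. The second bright one (1439426_x_at) gave 2167 and 4053, 1865 and 1867, and 2696 and 1584 in wild type, against 2636 and 2365, 263 and 219, and 454 and 541 in cko. Its duplicate arrays differed widely in wild type at 0 h and 12 h, and the genotypes overlapped at 0 h. In a fit of every probe set it was called lower in cko at 2 h (-2.88 ± 0.25) and 12 h (-2.03 ± 0.25) but not at 0 h (-0.25 ± 0.25, limma adjusted p = 0.51). Over time in wild type it was not called lower at 12 h than at 0 h (-0.52 ± 0.25, limma adjusted p = 0.111) or higher at 12 h than at 2 h (0.15 ± 0.25, limma adjusted p = 0.65). The third (1450822_at), the only one without that suffix, read 2.52 to 25.2 on all arrays, under the filter, and was not tested. Lyz2 itself was lower in cko at all 3 times, by -0.63, -1.37 and -0.75, and fell by 0.93 from 0 h to 12 h in wild type. Lyz1 minus Lyz2 within an array was 2.38 to 2.98 on the arrays with a low actin share and 1.73 to 2.18 on the others. How much of the Lyz1 signal comes from Lyz2 was not tested, and every count of 10 members includes Lyz1.

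The members varied together except for Camp. As a description over the 12 arrays, which share genotype, time and the control-probe division, Pearson's r of each member with the mean of the other 9 was 0.198 for Camp and 0.794 (Lyz1) to 0.978 (Lcn2) for the rest. The non-member genes with the most similar profile to the mean of the members were S100a6 (r = 0.969), Ifitm6 (0.957), Lyz2 (0.955), Timp2 (0.95), Prrc2b (0.95) and Cyp4f18 (0.95). S100a6 had mean signals of 213 in wild type and 138 in cko at 0 h, and 125 and 96.4 at 12 h. Ifitm6, which is on the list of other neutrophil genes, had 519 and 87.3 at 0 h, and 90.2 and 40.9 at 12 h.

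Other neutrophil genes, which the members' list does not hold, were lower in cko as well. Of the 15 tested, 10 were lower and 0 higher at 0 h, 10 and 0 at 2 h, and 7 and 0 at 12 h. From 0 h to 12 h in wild type 12 fell. Called lower in cko were 16, 15.7 and 29.9% of all genes at 0, 2 and 12 h, and 23.1% fell in wild type. From 0 h to 2 h the 15 split, 5 lower and 4 higher in wild type and 6 lower and 3 higher in cko. These counts lie near the shares of all genes, 36.2% lower and 23.5% higher in wild type and 39.2% and 23.8% in cko. From 0 h to 12 h in cko 7 of the 15 were lower and 2 higher, against 33.1% and 25.9% of all genes. From 0 h to 12 h in wild type Anxa1 (annexin A1) differed by -2.26, Ifitm6 by -2.36 and Il1b (interleukin-1 beta) by -2.41. Mmp8, the neutrophil collagenase of specific granules, was lower in cko by -2.0 ± 0.32 at 0 h. Of the 17 listed genes on the arrays, 15 passed the filter. The others, Itgam and Cxcr2, are defining neutrophil markers and were dim, at 0.715 to 18.3 and 3.50 to 17.3 on all 12 arrays. Ly6g was not among the probe sets with a single gene symbol. The summed signal of the 15 was 6300 to 6506 in wild type and 2265 to 2337 in cko at 0 h. The members' own sum was 31883 to 32878 and 14340 to 14469 at 0 h, 20902 to 20952 and 3506 to 3798 at 2 h, and 12549 to 13367 and 5026 to 5376 at 12 h. S100a8 and Lyz1 gave the largest parts of it. Their means at 0 h were 11983 and 6211 in wild type and 4594 and 5435 in cko.

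Of the azurophil granule genes tested, Mpo and Elane were dim, with wild-type means of 57.6 and 74.0 at 0 h, and Prtn3 was brighter. Prtn3 (proteinase 3) had mean signals of 243 in wild type and 60.3 in cko at 0 h, a difference of -1.78 ± 0.25, and fell by 3.19 to a mean of 12.4 at 12 h in wild type. Elane (neutrophil elastase) fell by 0.94 over that time, and Mpo (myeloperoxidase), at -0.83 (limma adjusted p = 0.075), was not called. Of the 3 tested, 1 was lower and 0 were higher in cko at 0 h, and 0 lower and 1 higher at 2 h. The shares of all genes were 16% lower and 16.3% higher at 0 h, and 15.7% and 12.8% at 2 h.

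Of 7 tested regulators of granule genes, 2 were higher and 2 lower in cko at 0 h, against 16.3% and 16% of all genes. Gfi1, a repressor needed for neutrophil maturation and also used in lymphocytes, rose from a mean of 127 to 1720.0 at 2 h in wild type and from 251 to 2969 in cko. Cebpb, a C/EBP factor, had wild-type means of 289, 611 and 40.01 and cko means of 202, 560.2 and 476 at 0, 2 and 12 h. Its 3 highest groups were those with a high actin 5′ share, and the part of that division in the Cebpb values was not tested. Runx1, a factor of haematopoietic development, fell by 1.36 from 0 h to 12 h in wild type. Cebpa was under the filter, at 4.05 to 36.3. Among 6 tested receptors and partners of the members' proteins, 1 was lower and 0 were higher in cko at 0 h. The shares of all genes were 16% and 16.3%. Tlr4 (-1.36), an innate receptor that calprotectin can engage, and Lrp1 (-0.80) fell from 0 h to 12 h in wild type.

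Markers of other cell types that a splenic sort could hold were measured beside the members at 0 h. At that time 16% of all genes were called lower and 16.3% higher in cko. Of 6 erythroid genes, 5 were lower and 1 higher in cko: Slc4a1, the red-cell anion exchanger, differed by -3.06 ± 0.20, Car1 (carbonic anhydrase 1) was also lower, and Hba-a2 (alpha globin), with means of 371 and 569, was higher. Their summed signal was 2164 to 2499 in wild type and 985 to 1022 in cko. Of 11 monocyte and macrophage genes 2 were lower (F13a1 and Lyz2) and 1 higher, and their sums were 2635 to 2677 and 2913 to 2997. The higher one was Csf1r, the receptor for macrophage colony-stimulating factor, at 0.93 ± 0.11. Csf1r, with means of 829 in wild type and 1591 in cko, and Lyz2, with 1104 and 707, made up the largest parts of these sums. Of 11 T- and NK-cell genes 1 was lower and 2 higher, with sums of 2375 to 2466 and 2149 to 2320. Of 5 platelet and 4 dendritic-cell genes limma called 0, and 0 had an unadjusted p under 0.05, the smallest being 0.0625 for Flt3. The dendritic-cell sums were 160 to 181 and 216 to 240. Of 12 B-cell genes 1 was lower and 7 higher in cko, with a median difference of 0.19. At 2 h, when 15.7% of all genes were called lower in cko and 12.8% higher, 9 of the 12 B-cell genes were lower and 1 higher. Their median was -0.23, with sums of 42542 to 43851 in wild type and 38467 to 38913 in cko. Of the erythroid genes 5 were lower and 1 higher at 2 h, with sums of 1043 to 1173 and 425 to 460.4, and of the monocyte and macrophage genes 3 were lower and 0 higher, with sums of 1673 to 1697 and 895 to 931. The part of other cells or of the control-probe values in the members' signals was not tested.

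**Figure D5:**
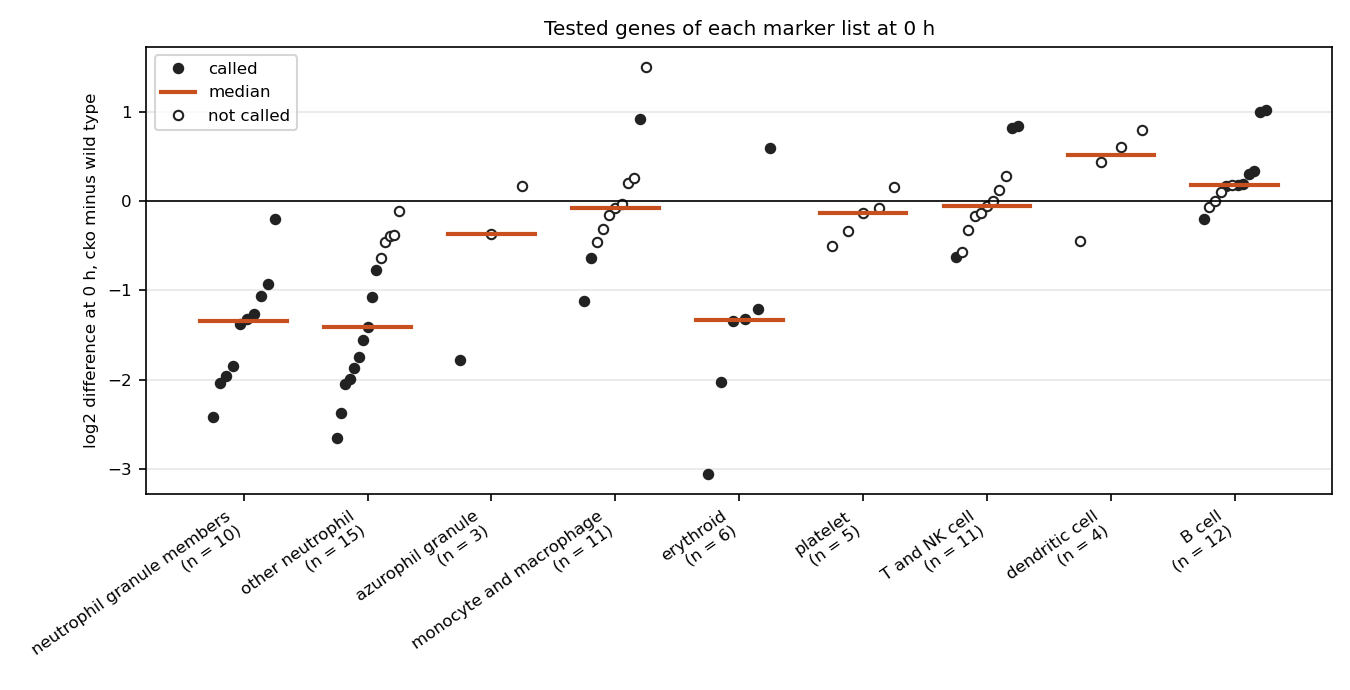
Log2 difference of cko minus wild type at 0 h for every tested gene of each marker list, with filled points for genes called by limma, open points for the others and a line at each list's median. The 10 members and 10 of 15 other neutrophil genes are called lower, against 16% of all genes. The monocyte and macrophage, T- and NK-cell and platelet genes spread around 0.

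From 0 h to 12 h in wild type, where 23.1% of all genes were called lower, the marker lists differed among themselves. Called lower were 4 of 6 erythroid, 4 of 11 monocyte and macrophage, 7 of 11 T- and NK-cell, and 10 of 12 B-cell genes. The named falls were -2.46 for Slc4a1, -1.22 for Csf1r, -2.29 for Vcam1, -2.05 for Nkg7 and -2.92 for Cd3e. The B-cell genes Cd22 (-1.25), Cd79b (-1.06) and Ms4a1 (-1.04) fell too. Of 5 platelet genes 1, Gp1bb (0.86), rose and 0 fell, and of 4 dendritic-cell genes Zbtb46 (1.26) rose and Flt3 (-0.68) fell.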

How the data were processed

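The authors deposited a linear intensity (signal) for each probe set on each array, from GCOS 1.4 according to the submitters' processing notes. RNA (100 ng) had 2 rounds of amplification, per the labels. The mean without the outer 2% at each end was 250 on all 12 arrays, as checked on the values. Detection calls were not used here. Signals were taken as log2(signal + 16). Of 45101 probe sets, 64 controls, 9160 without a symbol and 932 with several were left out, then those with a mean under the 40th percentile (5.14). Each gene kept its brightest probe set, which left 12190 genes. They were fitted with limma 3.58.1 in R 4.3.3 (6 group means, eBayes with trend, 6 residual and 7.3 prior degrees of freedom) in 14 two-sided contrasts, Benjamini-Hochberg adjusted. The number of arrays limits the precision. The procedure was tested on simulated data.

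The members and the other 10 gene lists, the latter from general knowledge, were chosen with earlier results of these data known. Named are all members and the 6 genes most like them. Of each other list, the 3 genes with the smallest p in 12 h against 0 h in wild type were taken. Those called are named, and of those not called only Mpo is. Mmp8, F13a1, Hba-a2, Car1, Cebpa, Itgam and Cxcr2 where they are given for other comparisons were chosen after their values were seen. Replicate numbers did not pair the arrays: over 15 pairs of groups the correlation of deviations was -0.0138 to 0.0128. Alternatives were quantile and median scaling, other pseudocounts and filters, no trend, the groups compared alone, a replicate block and other probe set rules. Further ones were an additive model with the control-probe division, an additive model of the mean of duplicates and leaving out each array.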

Additional observations from a re-analysis of the deposited data

Results flagged for a closer look

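The change from 0 h differed between the genotypes for 7 members at 2 h and 8 at 12 h. The test was the interaction (limma, cko change minus wild-type change, log2), which called 20.4% of all genes at 2 h and 43.2% at 12 h. At 12 h only the cko arrays change sides of the control-probe division, so division and genotype response cannot be told apart. The Pglyrp1 call at 2 h was lost under quantile normalization, median scaling and leaving out any one of 7 arrays. At 2 h the values were -1.57 for Ngp, -1.39 for S100a8, -1.10 for Camp, -0.69 for Chil3, -1.62 for Lyz1, -0.73 for S100a9 and -0.99 for Pglyrp1. At 12 h they were 0.49 for Ngp, -0.90 for S100a8, 3.01 for Camp, 1.85 for Chil3, 0.88 for Lcn2, -1.54 for Lyz1, 0.76 for S100a9 and 1.02 for Hp. S100a8 and Lyz1 had negative values at both times, and Ngp, Camp, Chil3 and S100a9 had a negative value at 2 h and a positive one at 12 h.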

How the results depend on the processing

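The counts of members called kept within 1.5 times under 325 of 327 other settings tried over the 14 contrasts. The exceptions came from the additive fit of averaged duplicate arrays, which called 3 members in the mean genotype difference and 6 in the mean 2 h difference. That fit has 1 value per group and no interaction term, and the part of each in the lost calls was not tested. Of the members' single log2 values, 3191 kept their call status, 65 lost the call, 12 gained one and 2 reversed. Direction was compared only for values called in the main fit or under the other setting. The reversed values, both of Camp, were -2.31 for the 2 h difference and -1.63 for the 12 h difference in the additive model with a term for the control-probe division; that model also leaves out the interaction, and the cause was not tested. Camp was called higher at 12 h on average under quantile normalization (0.19) and median scaling (0.35). The fit with the replicate number as a block left the counts as they were, for example 10 members lower at 0 h, and changed no member's call. Median scaling moved the higher share among the called genes from 44.5 to 55.2% for the mean genotype difference, from 37.3 to 52.8% for the mean 2 h difference, from 46.9 to 60.9% for the mean 12 h difference, from 42 to 61.5% for the 2 h interaction and from 43.5 to 71.7% for the 12 h interaction. A pseudocount of 64 gave -0.76 for Ltf and -1.37 for Pglyrp1 at 2 h in cko against wild type, both still called. It ended the Pglyrp1 calls in the 2 h interaction (-0.42) and from 2 h to 12 h in cko (0.41), and Hp was called in the 2 h interaction (0.55). Dim values, such as Ltf and Pglyrp1 in cko at 2 h, lie near the array median of 29.1 to 40.3 and were the ones most often lost when an array was left out.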
